A study of Mus musculus with 8 samples.

Results

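The cytochrome P450 family 2 (Cyp2) genes were measured in fasted livers of mice that overexpressed Nudt7, with GFP-expressing mice as controls. The members were all protein-coding genes of the GENCODE M21 annotation of GRCm38 whose symbol is Cyp2 followed by a subfamily letter and a number, with Cyp2c70 left out. The rule used no measured value and gave 48 genes of the 34547 genes summed from the files, in 14 subfamilies. Reads were found for 42 of the 48 genes, and 30 had enough reads to be tested.

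The Nudt7 group held 4 C57BL/6J mice injected with a viral vector (adeno-associated virus, AAV) that delivered mouse Nudt7, a peroxisomal hydrolase of coenzyme A and acyl-CoAs. The GFP group held 4 C57BL/6J mice given the same dose of a virus carrying green fluorescent protein, so both groups carried a vector and a transgene. All 8 mice were injected by tail vein at 8 weeks of age with 2.5e+11 particles, and all were fasted for 24 h before their livers were taken 3 to 4 weeks later, at an age of 11 to 12 weeks. The comparison addresses what Nudt7 overexpression does to the transcriptome of the fasted liver. The labels name neither the promoter nor the serotype of the vector, give no sex, and describe no uninjected or fed mice. Each label carries its own number and is read here as 1 mouse per library, and the p-values measure the spread between these 8 livers.

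Cytochrome P450 enzymes are heme proteins of the endoplasmic reticulum that insert oxygen into their substrates with electrons passed on by P450 oxidoreductase. Family 2 is the part of the superfamily best known for oxidising drugs, solvents and plant toxins in hepatocytes, and several members also act on steroids, arachidonic acid, bile acids or vitamin D. In mice the family expanded into gene clusters of close copies, and many members are made mainly by the hepatocytes around the central vein or differ between the sexes.

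Close copies decide how far single members can be told apart, so the coding starts are shown here for 2 groups of copies, those of Cyp2a5 and of Cyp2c50, from the GENCODE M21 transcripts. The first 90 coding bases are printed 5′ to 3′, with capitals at each base that differs between the copies shown. Cyp2a5 lies at chr7:26835305-26843548 and Cyp2a4 at chr7:26307169-26315088, both on the plus strand of GRCm38. Cyp2c50 (chr19:40089688-40113950, plus strand), Cyp2c54 (chr19:40037940-40073827, minus strand) and Cyp2c37 (chr19:39992424-40012243, plus strand) are neighbours.
Cyp2a5: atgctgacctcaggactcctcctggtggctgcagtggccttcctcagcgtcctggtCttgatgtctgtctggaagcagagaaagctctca
Cyp2a4: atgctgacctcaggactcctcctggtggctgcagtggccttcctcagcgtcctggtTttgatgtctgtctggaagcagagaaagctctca
Cyp2c50: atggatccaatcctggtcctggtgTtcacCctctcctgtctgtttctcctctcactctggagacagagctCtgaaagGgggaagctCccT
Cyp2c54: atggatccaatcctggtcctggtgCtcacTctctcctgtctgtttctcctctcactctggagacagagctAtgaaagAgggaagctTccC
Cyp2c37: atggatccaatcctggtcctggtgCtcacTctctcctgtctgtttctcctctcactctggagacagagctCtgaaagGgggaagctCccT
Over the whole coding sequence, Cyp2a4 and Cyp2a5 differed at 23 of 1482 bases (98.4% identical). Cyp2c37 and Cyp2c50 were 96.1% identical, Cyp2c50 and Cyp2c54 95.2%, and Cyp2c37 and Cyp2c54 95.1%. Of the 31-base words in the Cyp2a5 transcripts, 44.9% also occurred in Cyp2a4, 23.4% in the pseudogene Cyp2a21-ps and 54.6% in any other gene. The shares of words found in any other gene were 47.4% for Cyp2c37, 29.2% for Cyp2c50 and 42.3% for Cyp2c54, whereas none of the words of Cyp2c23, Cyp2f2 or Cyp2r1 occurred elsewhere.

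The upstream sequences of Cyp2a5 and Cyp2a4 are shown because the genes stood at very different levels in these livers. The windows come from the RefSeq promoter table (build GRCm38.p6), end before the annotated transcript starts, and have capitals at the bases that differ. The Cyp2a5 window is chr7:26835139-26835303 and runs from base -200 to base -36 before the RefSeq start. The Cyp2a4 window is chr7:26306993-26307157 and covers bases -199 to -35.
Cyp2a5: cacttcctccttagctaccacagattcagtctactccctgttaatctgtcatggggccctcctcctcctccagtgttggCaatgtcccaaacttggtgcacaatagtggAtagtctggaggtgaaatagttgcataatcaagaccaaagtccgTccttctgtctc
Cyp2a4: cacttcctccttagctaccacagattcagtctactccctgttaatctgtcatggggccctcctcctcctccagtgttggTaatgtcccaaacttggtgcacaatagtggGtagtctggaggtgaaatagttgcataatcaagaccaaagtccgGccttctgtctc
The windows differed at 3 of 165 bases. Both hold GTTAAT, a half-site recognised by HNF1 factors, and both genes have TATAAA close to the start, at -29 in Cyp2a5 and -28 in Cyp2a4. Cyp2a5 averaged 62.7 TPM over the 8 livers and Cyp2a4 0.0761 TPM (TPM, transcripts per 1e+06 transcripts, a level scaled for transcript length and library).

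The libraries held between 11187806 and 23640734 estimated reads, of which the Cyp2 family took 0.971% to 1.31%. Nudt7 itself averaged 2006 ± 1050 CPM across Nudt7 livers and 72.3 ± 8.27 CPM across GFP livers (SD, n = 4 per group), where CPM is reads per 1e+06 of the scaled library (log2 fold change 4.79, edgeR adjusted p = 0.000122). Nudt7 liver 3 stood apart from the rest. On the first principal component, which took 38.0% of the variance, it lay at 56.3 and the other livers between -17.9 and 0.6. Relative to the other Nudt7 livers, its genes with short transcripts were higher by 0.39 and those with long transcripts had a difference of -0.33 (log2). Its 5 red blood cell marker genes summed to 1813 CPM, against 303 to 642 CPM in the other 3 Nudt7 livers and 412 to 598 CPM in GFP livers. Of the 30 tested Cyp2 genes, 16 belong to the class of short transcripts, 11 to the middle class and 3 to the long class. The part of red blood cell RNA in the Cyp2 values was not tested. Values without this liver are given beside the genes and sums named below where it moves them most. As these are whole livers, fewer cells of a type and less RNA per cell cannot be told apart.

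Cyp2e1, the enzyme that oxidises ethanol, acetone and acetaminophen, made up about as much of the transcript pool as the rest of the family together. It averaged 4435 ± 730 TPM across Nudt7 livers and 4465 ± 346 TPM across GFP livers, which was 49.0% of the family's TPM in Nudt7 livers and 52.1% in GFP livers. The next genes by level were Cyp2d9 with a mean of 1427 TPM over the 8 livers, Cyp2d10 with 599 TPM, Cyp2f2 with 486 TPM, Cyp2d26 with 461 TPM and Cyp2a12 with 276.5 TPM. In all, 10 genes reached 100 TPM and 21 reached 10 TPM, while 7 stood between 1 and 10 TPM and 14 were detected below 1 TPM. No read was assigned in any liver to Cyp2c65, Cyp2c66, Cyp2j7, Cyp2j11, Cyp2j12 or Cyp2w1.

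**Figure D1:**
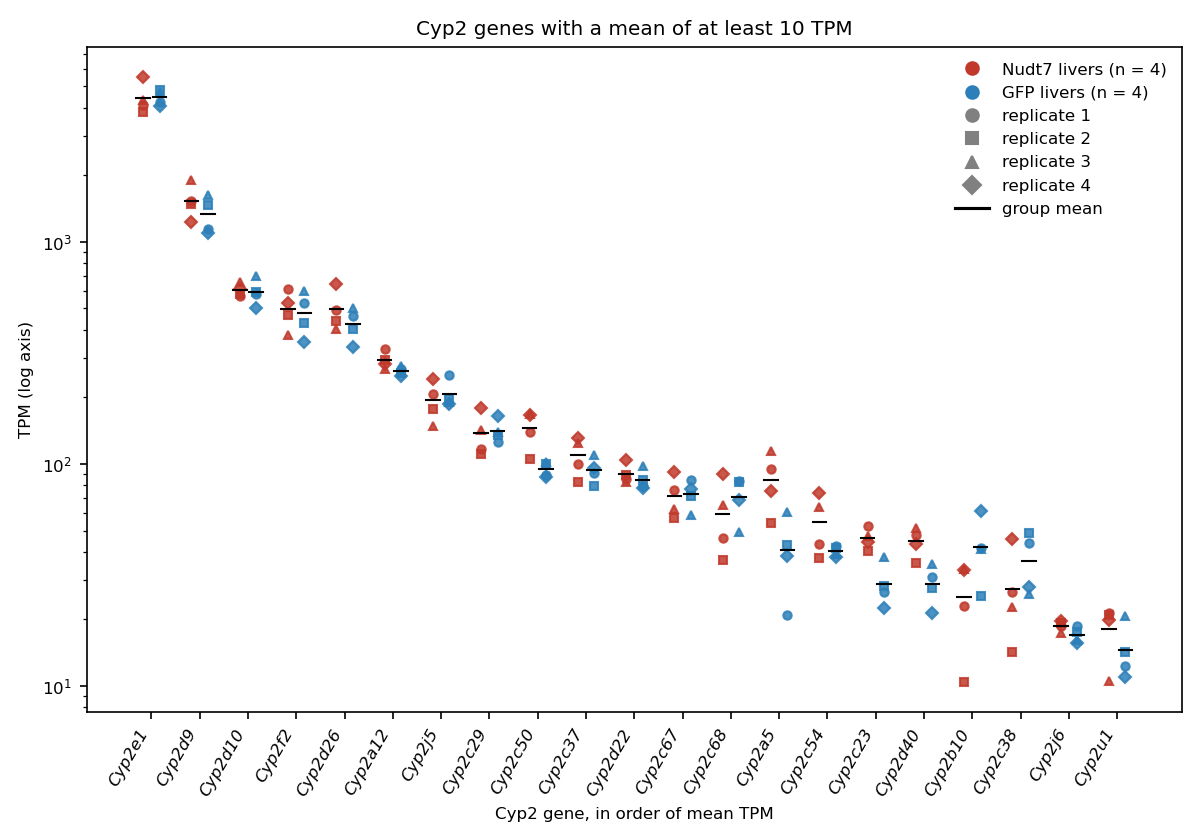
Level of the 21 Cyp2 genes with a mean of at least 10 TPM, on a log axis, in the 4 Nudt7 livers (red) and the 4 GFP livers (blue), with a symbol for each replicate and a line at each group mean. Levels span from Cyp2e1, at a mean of 4450 TPM over all livers, to Cyp2u1 at 16.3 TPM, and the groups overlap for most genes.

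Spread between livers was set side by side for both groups. Over the 21 genes of at least 10 TPM, the coefficient of variation between livers in CPM ran from 7.40% to 54.2% in Nudt7 livers (median 24.8%) and from 3.03% to 40.1% in GFP livers (median 14.4%). In CPM, 12 of these 21 genes were highest in Nudt7 liver 3, 6 in Nudt7 liver 4, 2 in Nudt7 liver 1 and 1 in GFP liver 4. The lowest value fell in Nudt7 liver 2 for 7 genes, in GFP liver 4 for 6, in GFP liver 1 for 4, and in GFP livers 2 and 3 for 2 genes each.

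No Cyp2 gene passed an adjusted p of 0.05 in edgeR's quasi-likelihood test, in either direction, where 0.117% of all 13678 genes tested did. The smallest adjusted p among the members was 0.111, for Cyp2c23. At an unadjusted p under 0.05, 10 of the 30 tested members (33.3%) were higher in Nudt7 livers, beside 4.25% of all genes, and 0 were lower, beside 4.03% of all genes. These 10 were Cyp2a5, Cyp2a12, Cyp2a22, Cyp2c23, Cyp2c50, Cyp2c54, Cyp2d26, Cyp2d40, Cyp2j6 and Cyp2u1. The log2 fold change was positive for 23 members and negative for 7, with a median of 0.25, whereas 49.8% of all genes were positive with a median of -0.001. DESeq2, run as an alternative, called 5 members higher (Cyp2a5, Cyp2a22, Cyp2c23, Cyp2c50 and Cyp2d40) and 0 lower at an adjusted p of 0.05, where it called 0.636% and 0.49% of all genes.

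Of the 30 tested genes, 7 did not overlap between the groups in CPM, all of them higher in Nudt7 livers (2.74% of all genes), and 0 were lower without overlap (3.0% of all genes). On the TPM scale, chosen as an alternative after the data were seen, 3 members did not overlap, namely Cyp2c23, Cyp2c50 and Cyp2d40 (1.05% of all genes). Without Nudt7 liver 3, 9 members had an unadjusted p under 0.05 on the higher side (4.3% of all genes), all of them among the 10 above, and 0 on the lower side (3.99%). The median log2 fold change of the members was then 0.19. With the trend in transcript length removed, the same 10 members had an unadjusted p under 0.05 (5.23% of all genes).

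**Figure D2:**
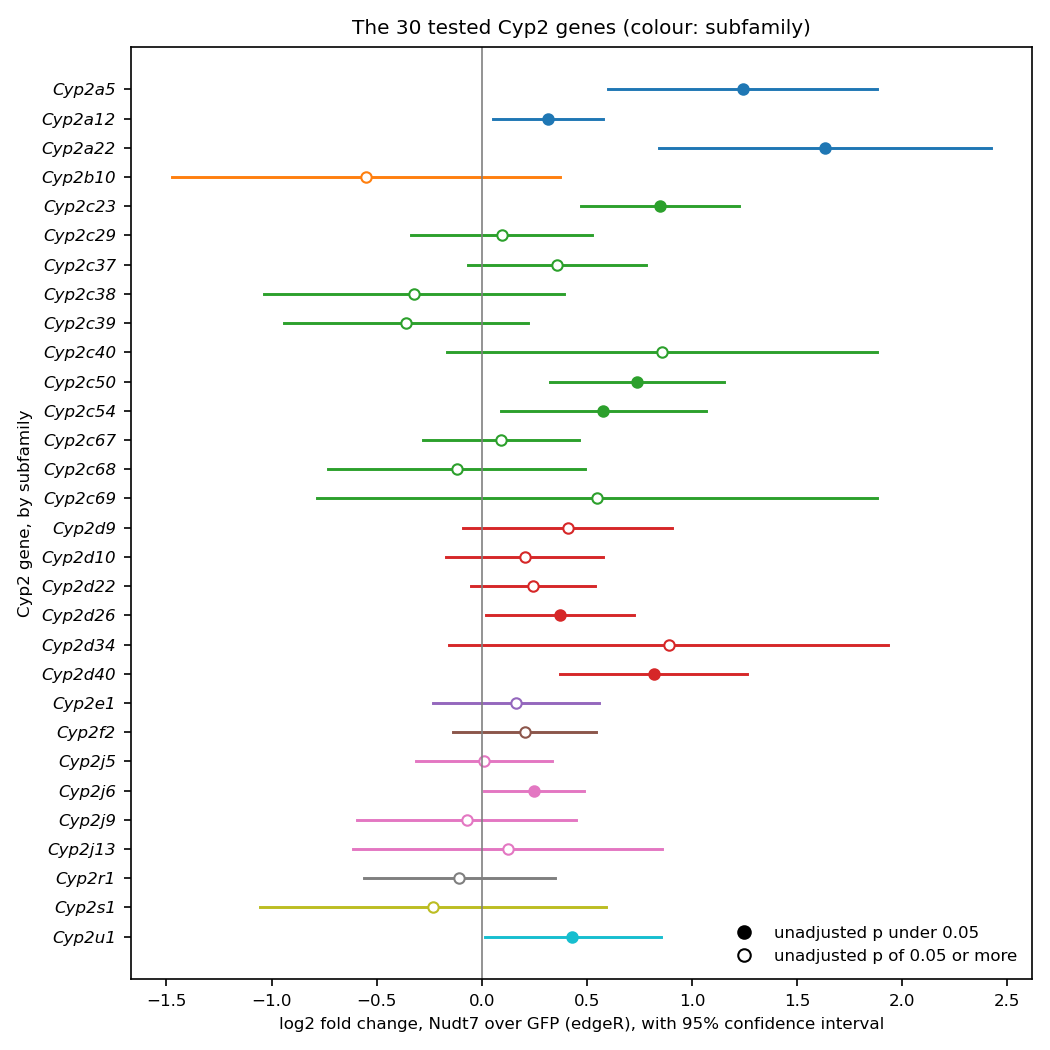
log2 fold change of each of the 30 tested Cyp2 genes, Nudt7 over GFP, with its 95% confidence interval from the edgeR fit, grouped and coloured by subfamily, with filled points for an unadjusted p under 0.05. The 10 filled points all lie above 0, from 0.25 for Cyp2j6 to 1.63 for Cyp2a22, and 7 genes lie below 0, the lowest being Cyp2b10 at -0.55.

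In the Cyp2a subfamily, which hydroxylates coumarin, steroids and bile acids, all 3 tested members had positive fold changes. Cyp2a5, the coumarin hydroxylase of mouse liver, had 130.1, 78.0, 185 and 100.3 CPM in Nudt7 livers 1 to 4, against 29.3, 58.8, 68.6 and 52.5 CPM in GFP livers 1 to 4. The groups did not overlap in CPM, with liver 3 the highest of its group and GFP liver 1 the lowest of all 8. Its mean was 123 ± 46.5 CPM across Nudt7 livers and 52.3 ± 16.7 CPM across GFP livers (SD, n = 4 per group), a log2 fold change of 1.24 (SE 0.29, 95% confidence interval 0.60 to 1.88, edgeR adjusted p = 0.179). DESeq2 gave 1.25 with an adjusted p of 0.00415, and the edgeR value without Nudt7 liver 3 was 0.99. On the TPM scale the groups overlapped, with 54.2 TPM in Nudt7 liver 2 and 60.4 TPM in GFP liver 3.

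Cyp2a22 (chr7:26931631-26939384, minus strand) is a minor gene of the cluster. It had 4.53, 2.76, 2.01 and 5.97 CPM in Nudt7 livers 1 to 4, against 1.03, 0.926, 1.05 and 1.74 CPM in GFP livers 1 to 4. The groups did not overlap in CPM, and here Nudt7 liver 3 was the lowest of its group. On the TPM scale they overlapped, with 0.780 TPM in Nudt7 liver 3 and 0.899 TPM in GFP liver 4. The gene had between 12.6 and 91.5 reads in a liver. The log2 ratio of Nudt7 over GFP was 1.63 (SE 0.36, 95% confidence interval 0.84 to 2.42, edgeR adjusted p = 0.148), the widest difference among the tested members, 1.65 in DESeq2 (adjusted p = 0.00394), and 1.85 in edgeR without Nudt7 liver 3 (adjusted p = 0.0578). Of its TPM, 57.3% across Nudt7 livers and 55.2% across GFP livers was assigned to a transcript with a retained intron, and 34.6% of its 31-base words also occur in Cyp2a12, which was expressed at a far higher level.

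Cyp2a12 (chr7:27029081-27037375, plus strand), a steroid and bile acid hydroxylase, had 410.5, 369, 459 and 382 CPM in Nudt7 livers 1 to 4, against 322, 313, 335 and 332 CPM in GFP livers 1 to 4. The groups did not overlap in CPM, and the GFP livers lay close together. The edgeR fit gave a log2 fold change of 0.32 (SE 0.12, edgeR adjusted p = 0.511), and 0.26 without Nudt7 liver 3. Cyp2a4, a testosterone hydroxylase that is higher in female mouse liver, received at most 3.79 reads in a liver and was not tested.

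**Figure D3:**
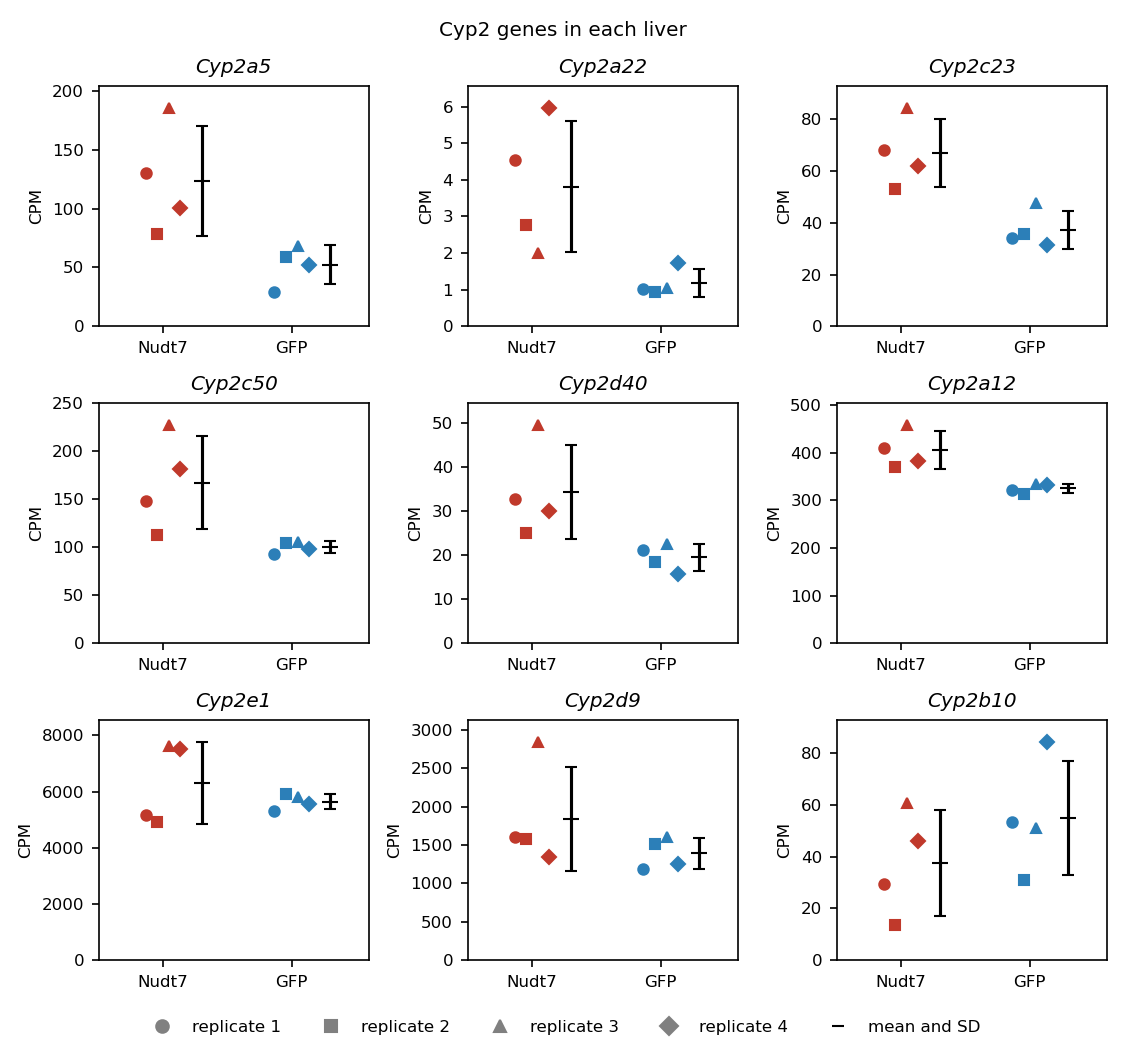
CPM of 9 Cyp2 genes in each of the 4 Nudt7 livers (red, left) and the 4 GFP livers (blue, right), with a symbol per replicate and a bar for the mean with its SD. Cyp2a5, Cyp2a22, Cyp2c23, Cyp2c50, Cyp2d40 and Cyp2a12 separate the groups, while Cyp2e1, Cyp2d9 and Cyp2b10 overlap, with 2840 CPM of Cyp2d9 in Nudt7 liver 3 as the highest value of that gene.

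The Cyp2c subfamily holds the main arachidonic acid epoxygenases of mouse liver, and its members divided between positive and negative fold changes. Cyp2c23 (chr19:44005022-44029208, minus strand), an arachidonic acid epoxygenase of kidney and liver earlier named Cyp2c44, lies apart from the other Cyp2c genes on chromosome 19. It had 68.0, 52.9, 84.2 and 61.9 CPM in Nudt7 livers 1 to 4, against 34.0, 35.8, 47.8 and 31.3 CPM in GFP livers 1 to 4. All 4 Nudt7 livers lay above all 4 GFP livers, in CPM and in TPM. The means were 46.1 ± 5.15 TPM across Nudt7 livers and 28.9 ± 6.66 TPM across GFP livers (SD, n = 4 per group). It differed on the log2 scale by 0.85 (SE 0.17, 95% confidence interval 0.47 to 1.22, edgeR adjusted p = 0.111), and 0.73 without Nudt7 liver 3 (adjusted p = 0.0752).

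The adjusted p of Cyp2c23 lay on both sides of 0.05 under other settings. It was 0.00211 in DESeq2, 0.0234 in limma-voom with sample weights, 0.0432 in edgeR with no filter on low counts and 0.0489 in edgeR with the length trend removed. Of all genes, limma-voom with sample weights called 0.424% higher, edgeR with no filter 0.0662% and edgeR with the length trend removed 0.161%. The log2 fold change ran from 0.73 to 1.002 when each liver was left out in turn.

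Cyp2c50, Cyp2c54 and Cyp2c37 are pericentral enzymes that act on arachidonic and linoleic acid. Cyp2c50 had 148, 113, 227 and 181 CPM in Nudt7 livers 1 to 4, against 92.8, 104, 106 and 98.4 CPM in GFP livers 1 to 4. Nudt7 livers 3 and 4 were the highest, Nudt7 liver 2 came close to the GFP livers, and the groups did not overlap. On the log2 scale the fitted difference was 0.74 (SE 0.19, 95% confidence interval 0.33 to 1.15, edgeR adjusted p = 0.233), with 0.75 and an adjusted p of 0.0252 in DESeq2 and 0.57 in edgeR without Nudt7 liver 3. Its transcript with a retained intron averaged 15.5 ± 4.77 TPM across Nudt7 livers and 6.23 ± 2.22 TPM across GFP livers, and its main coding transcript averaged 89.2 ± 16.7 TPM in Nudt7 livers, against 62.3 ± 9.11 TPM in GFP livers (SD, n = 4 per group).

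Cyp2c54 had 45.3, 39.6, 84.8 and 79.4 CPM in Nudt7 livers 1 to 4, against 43.2, 42.7, 39.7 and 41.7 CPM in GFP livers 1 to 4. Nudt7 livers 3 and 4 stood well above all others. Nudt7 livers 1 and 2 lay just outside the narrow range of the GFP livers, liver 1 above it and liver 2 below it. The log2 fold change came to 0.58 (SE 0.22, edgeR adjusted p = 0.521), and 0.41 without Nudt7 liver 3. Cyp2c37 had 108, 91.4, 173 and 146 CPM in Nudt7 livers 1 to 4, against 96.7, 84.7, 114 and 109 CPM in GFP livers 1 to 4. Its groups overlapped, again with Nudt7 livers 3 and 4 on top (log2 fold change 0.36, SE 0.19, edgeR adjusted p = 0.664, and 0.20 without Nudt7 liver 3). Summed over the 3 genes, a choice made after the shared words were seen, the log2 fold change was 0.56 (SE 0.19, edgeR adjusted p = 0.466).

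Cyp2c29, the Cyp2c gene with the highest mean TPM over the 8 livers and a target of the receptor CAR, had 129, 125, 206 and 211 CPM in Nudt7 livers 1 to 4, against 138.5, 147, 150.2 and 193.5 CPM in GFP livers 1 to 4. The Nudt7 livers lay on both sides of the GFP livers (log2 fold change 0.09, SE 0.20, 95% confidence interval -0.34 to 0.52, edgeR adjusted p = 0.902). Cyp2c38, an arachidonic acid oxidase, had 46.0, 24.9, 47.1 and 85.02 CPM in Nudt7 livers 1 to 4, against 75.0, 83.7, 44.4 and 51.2 CPM in GFP livers 1 to 4. The Nudt7 livers held both the lowest and the highest value of the 8 (log2 fold change -0.32, SE 0.32, edgeR adjusted p = 0.787). Cyp2c39, a retinoic acid hydroxylase, had 3.17, 3.54, 4.43 and 7.37 CPM in Nudt7 livers 1 to 4, against 5.03, 7.73, 5.61 and 5.66 CPM in GFP livers 1 to 4 (log2 fold change -0.36, SE 0.26, edgeR adjusted p = 0.714). Its groups overlapped. It is named here after its values were seen, as the 1 member with an unadjusted p under 0.05 on the lower side in limma-voom with sample weights (5.83% of all genes).

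Cyp2c67 had 81.3, 62.1, 87.0 and 101.9 CPM in Nudt7 livers 1 to 4, against 88.6, 75.5, 61.4 and 86.6 CPM in GFP livers 1 to 4 (log2 fold change 0.09, SE 0.17, edgeR adjusted p = 0.887). Cyp2c68 had 49.1, 39.7, 88.8 and 99.6 CPM in Nudt7 livers 1 to 4, against 87.1, 86.0, 51.3 and 77.2 CPM in GFP livers 1 to 4 (log2 fold change -0.12, SE 0.28, edgeR adjusted p = 0.913). In both genes the groups overlapped, and the highest liver was Nudt7 liver 4. Cyp2c40 and Cyp2c69, female-biased copies of these genes in mouse liver, stood at means of 4.79 and 1.275 TPM with log2 ratios of 0.86 (SE 0.46) and 0.55 (SE 0.61). Between 62.0% and 72.6% of the 31-base words of these 4 genes occur in another gene, so their split is uncertain, and their sum gave a log2 fold change of 0.02 (SE 0.21, edgeR adjusted p = 0.982).

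The promoters of these 4 copies and of Cyp2c65 share a sequence that few promoters hold. The 9 letters CAAAGTCCA, a site recognised by HNF4 alpha, were searched on both strands of 300 bases around each RefSeq start, from 250 before it to 50 after. They occurred in 5 of the 40 members with a promoter in the table and in 0.475% of all 32851 promoters of that length. The 5 matches, all on chromosome 19 in GRCm38.p6, are printed with 10 bases on either side and the match in capitals, to show that its surroundings are nearly the same in Cyp2c40, Cyp2c67, Cyp2c68 and Cyp2c69 and differ in Cyp2c65. The searched stretches are chr19:39812765-39813064 for Cyp2c40, chr19:39886720-39887019 for Cyp2c69, chr19:39648993-39649292 for Cyp2c67 and chr19:39741052-39741351 for Cyp2c68, all on the minus strand, and chr19:39060756-39061055 on the plus strand for Cyp2c65.
Cyp2c40: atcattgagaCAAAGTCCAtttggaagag
Cyp2c69: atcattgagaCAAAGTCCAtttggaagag
Cyp2c67: atcattgagaCAAAGTCCAtttggaagca
Cyp2c68: atcattgaaaCAAAGTCCAattggaagag
Cyp2c65: gatgttggaaCAAAGTCCActgggaggag
Counted from the RefSeq start, the match began at -45 in Cyp2c40, -75 in Cyp2c69, -125 in Cyp2c67, -77 in Cyp2c68 and -116 in Cyp2c65. TATAAA began at base 41 after the start in Cyp2c40, at base 11 after it in Cyp2c69 and at -40 in Cyp2c67. It shifted as the match did, so the distances in these copies follow where RefSeq places the start. In GENCODE, Cyp2c68 starts at chr19:39741054, close to the downstream end of its searched stretch. Among these 5 genes, Cyp2c67 and Cyp2c68 averaged 72.4 and 65.2 TPM, and Cyp2c65 had no read. In the same windows, TATAAA was found in 20 of 40 members and 13.6% of all promoters, AGGTCA, a nuclear receptor half-site, in 12 and 16.3%, and GTTAAT in 6 and 7.1%. The D-box letters TTATGTAA or TTACGTAA were found in none of the 40 and in 1.06% of all promoters. Promoters of Cyp2c23, Cyp2c54, Cyp2d12, Cyp2d22, Cyp2d34, Cyp2g1, Cyp2j7 and Cyp2u1 were not used here.

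In the Cyp2d subfamily all 6 tested members had positive fold changes. Cyp2d40 (chr15:82759833-82764183, minus strand) had 32.7, 25, 49.6 and 30.02 CPM in Nudt7 livers 1 to 4, against 21.2, 18.6, 22.6 and 15.7 CPM in GFP livers 1 to 4. The groups did not overlap in CPM, nor in TPM, where the nearest values were 35.9 TPM in Nudt7 liver 2 and 35.5 TPM in GFP liver 3. The log2 ratio of Nudt7 over GFP was 0.82 (SE 0.20, 95% confidence interval 0.37 to 1.26, edgeR adjusted p = 0.212), with 0.83 and an adjusted p of 0.0258 in DESeq2 and 0.60 in edgeR without Nudt7 liver 3. Of its 31-base words, 28.6% also occur in the pseudogene Cyp2d41-ps.

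Cyp2d9 (chr15:82433437-82456845, plus strand), a testosterone hydroxylase that is higher in male mouse liver, had 1609, 1580, 2840 and 1344 CPM in Nudt7 livers 1 to 4, against 1189, 1508, 1606 and 1255 CPM in GFP livers 1 to 4. Nudt7 liver 3 stood far above the other 7 livers, which overlapped. The edgeR fit gave a log2 fold change of 0.41 (SE 0.23, edgeR adjusted p = 0.664), and 0.13 (SE 0.14) without Nudt7 liver 3. Cyp2d10 showed the same liver on top, with 594, 616, 969 and 653 CPM in Nudt7 livers 1 to 4, against 604, 612, 678 and 566 CPM in GFP livers 1 to 4. Its log2 fold change was 0.20 (SE 0.17, edgeR adjusted p = 0.744), and 0.03 without Nudt7 liver 3.

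Cyp2d26 (chr15:82790101-82794294, minus strand) had 548, 493, 632 and 754 CPM in Nudt7 livers 1 to 4, against 513, 439.5, 521 and 402 CPM in GFP livers 1 to 4. Nudt7 liver 4 was the highest and the groups overlapped (log2 fold change 0.37, SE 0.16, edgeR adjusted p = 0.581, and 0.36 without Nudt7 liver 3). Cyp2d22, the mouse gene most often compared with human CYP2D6, had 156, 165, 213 and 197.5 CPM in Nudt7 livers 1 to 4, against 143, 151, 169.8 and 153 CPM in GFP livers 1 to 4. Its groups overlapped as well, with Nudt7 livers 3 and 4 on top (log2 fold change 0.24, SE 0.13, edgeR adjusted p = 0.664, and 0.17 without Nudt7 liver 3). Cyp2d34 was a minor gene with a mean of 1.75 TPM and a log2 fold change of 0.89 (SE 0.48, edgeR adjusted p = 0.662).

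Cyp2e1 (chr7:140763739-140774987, plus strand) had 5179, 4935, 7625 and 7514 CPM in Nudt7 livers 1 to 4, against 5303, 5910.0, 5807 and 5549 CPM in GFP livers 1 to 4. Nudt7 livers 3 and 4 were the highest of the 8 and Nudt7 livers 1 and 2 the lowest, so the GFP livers lay between them. On the log2 scale the fitted difference was 0.16 (SE 0.18, 95% confidence interval -0.23 to 0.56, edgeR adjusted p = 0.805). It was 0.07 without Nudt7 liver 3 and likewise without Nudt7 liver 4, 0.26 without Nudt7 liver 1 or 2, and 0.0 in limma-voom with sample weights. Cyp2f2 (chr7:27119909-27133660, plus strand), which oxidises naphthalene and marks periportal hepatocytes, had 767, 589, 675 and 708 CPM in Nudt7 livers 1 to 4, against 660.0, 531, 703 and 484 CPM in GFP livers 1 to 4. The groups overlapped (log2 fold change 0.20, SE 0.16, 95% confidence interval -0.135 to 0.545, edgeR adjusted p = 0.719).

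Cyp2b10 (chr7:25897620-25926624, plus strand), the standard target gene of the xenobiotic receptor CAR, was the tested member with the most negative fold change. It had 29.5, 13.7, 60.6 and 46.1 CPM in Nudt7 livers 1 to 4, against 53.4, 30.9, 50.9 and 84.2 CPM in GFP livers 1 to 4. The lowest liver was Nudt7 liver 2 and the highest GFP liver 4, with the rest intermixed. The log2 fold change came to -0.55 (SE 0.42, 95% confidence interval -1.48 to 0.37, edgeR adjusted p = 0.720). It was -0.87 without Nudt7 liver 3, -0.28 without Nudt7 liver 2 and -0.245 without GFP liver 4. Cyp2b9, Cyp2b13, Cyp2b19 and Cyp2b23 reached at most 0.834 TPM in a liver and were not tested.

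The Cyp2j genes make epoxides of arachidonic acid. Cyp2j5 (chr4:96628773-96664154, minus strand), the main member of liver, had 320.5, 276, 296 and 388 CPM in Nudt7 livers 1 to 4, against 381, 298, 287 and 304 CPM in GFP livers 1 to 4. The groups overlapped almost fully (log2 fold change 0.01, SE 0.15, 95% confidence interval -0.31 to 0.33, edgeR adjusted p = 0.988). Cyp2j6 (chr4:96516138-96553661, minus strand) had 42.7, 45.2, 50.9 and 46.2 CPM in Nudt7 livers 1 to 4, against 42.2, 39.5, 36.2 and 37.95 CPM in GFP livers 1 to 4. Its groups touched without overlapping in CPM, with Nudt7 liver 1 only just above GFP liver 1, and they overlapped in TPM (log2 fold change 0.25, SE 0.11, edgeR adjusted p = 0.588). Cyp2j9, at a mean of 7.495 TPM, and Cyp2j13, at 0.311 TPM, gave -0.07 (SE 0.24) and 0.12 (SE 0.34) on the log2 scale.

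Cyp2u1 (chr3:131288441-131303227, minus strand), an omega-hydroxylase of long-chain fatty acids with a long transcript, had 55.9, 51.6, 37.8 and 53.5 CPM in Nudt7 livers 1 to 4, against 32.0, 35.7, 51.8 and 28.3 CPM in GFP livers 1 to 4. Nudt7 liver 3 was the lowest of its group, and GFP liver 3 the highest of its own, so the groups overlapped. The log2 ratio of Nudt7 over GFP was 0.43 (SE 0.19, edgeR adjusted p = 0.590), and 0.56 without Nudt7 liver 3. Cyp2r1, which hydroxylates vitamin D in the first step of its activation, had 4.53, 3.18, 4.04 and 3.71 CPM in Nudt7 livers 1 to 4, against 4.08, 3.80, 5.52 and 3.39 CPM in GFP livers 1 to 4 (log2 fold change -0.11, SE 0.21, edgeR adjusted p = 0.892). Its groups overlapped, with GFP liver 3 on top.

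The remaining subfamilies were at or near the limit of detection. Cyp2s1, a gene mainly of epithelia outside the liver, had 0.613, 1.02, 0.865 and 0.521 CPM in Nudt7 livers 1 to 4, against 0.575, 1.37, 0.928 and 0.786 CPM in GFP livers 1 to 4 (log2 fold change -0.23, SE 0.38, edgeR adjusted p = 0.872). Cyp2t4 had 5, 3, 1 and 8 reads in Nudt7 livers 1 to 4, against 11, 4, 10 and 8 reads in GFP livers 1 to 4. Cyp2ab1 had 2 reads in Nudt7 liver 2, against 1 read in GFP liver 3 and 3 in GFP liver 4. Cyp2g1, an olfactory mucosa gene that is female-biased in mouse liver, had 2, 1, 0 and 3 reads in Nudt7 livers 1 to 4 and 0 reads in every GFP liver. None of these 3 genes had enough reads to be tested, and no read was assigned to Cyp2w1 in any liver.

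**Figure D4:**
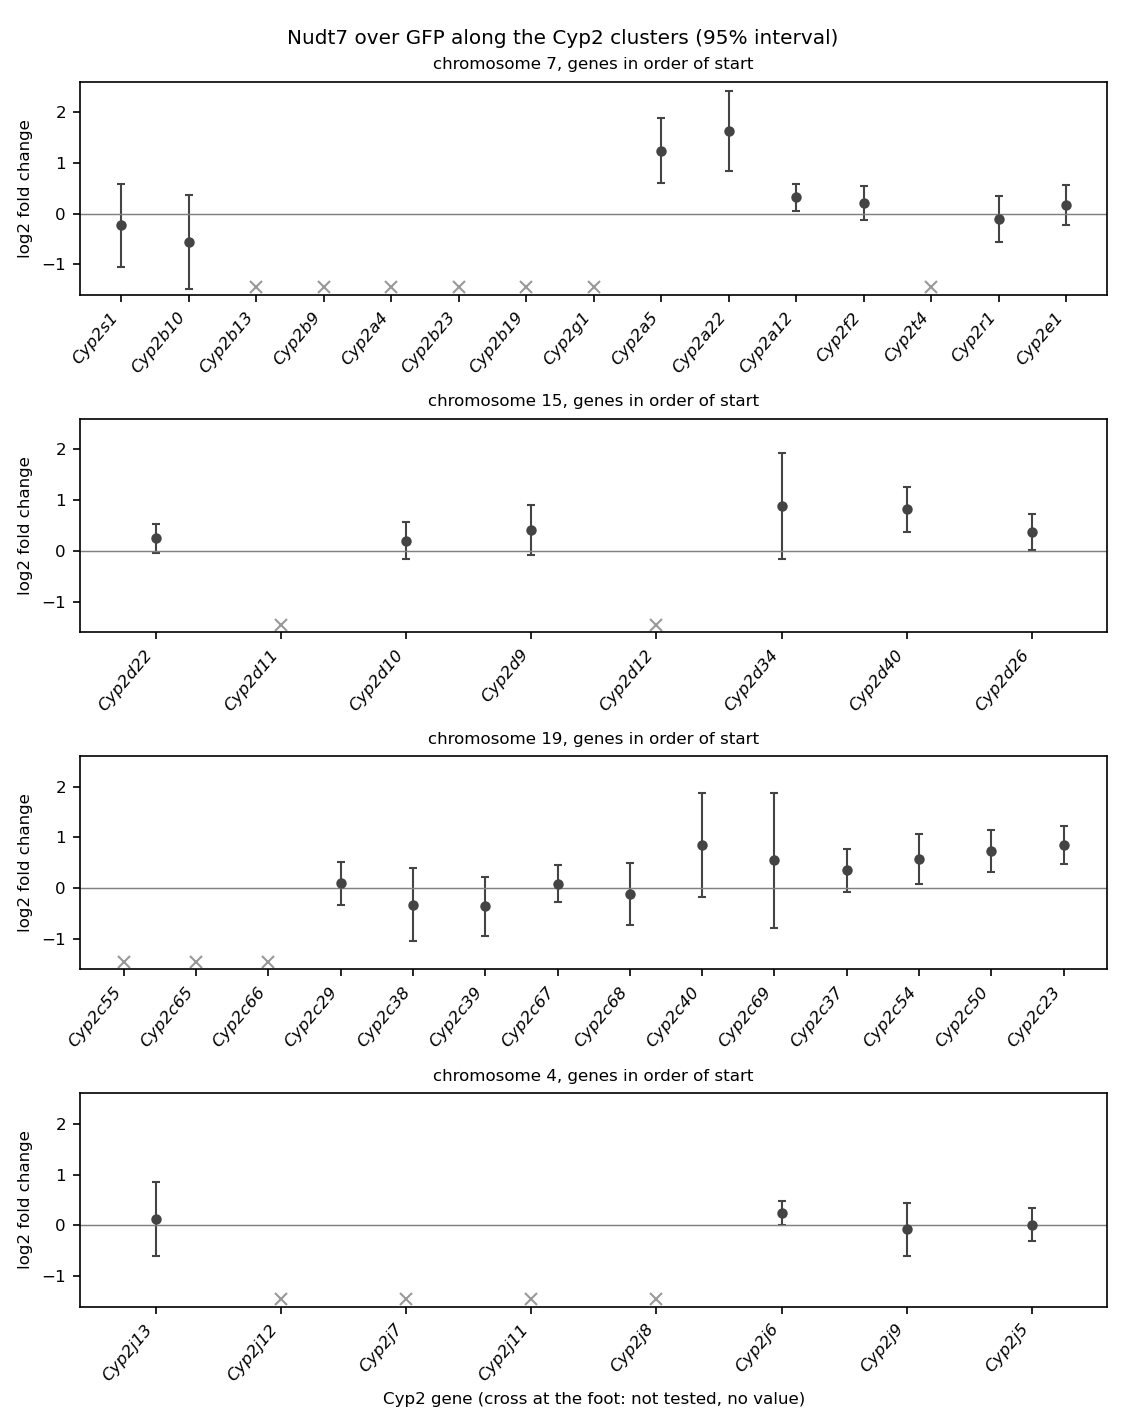
log2 fold change of Cyp2 genes, Nudt7 over GFP, in order of gene start along the 4 chromosomes that hold most of them, with 95% confidence intervals from edgeR and a cross at the foot for a gene that was not tested. On chromosome 7, the adjacent genes Cyp2a5 at 1.24 and Cyp2a22 at 1.63 have the highest values among the tested genes. On chromosome 19 the values run from -0.36 for Cyp2c39 to 0.86 for Cyp2c40.

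Summing reads over a subfamily removes the split between its member genes. A split with pseudogenes can remain, as Cyp2a21-ps and Cyp2d41-ps share words with Cyp2a5 and Cyp2d40 and are not in the sums. The Cyp2a sum was 545, 450, 646 and 489 CPM in Nudt7 livers 1 to 4, against 353, 373, 404.5 and 386 CPM in GFP livers 1 to 4. It was the only tested subfamily whose groups did not overlap, with a log2 fold change of 0.49 (SE 0.14, 95% confidence interval 0.185 to 0.80, edgeR adjusted p = 0.337) and, in DESeq2, 0.50 with an adjusted p of 0.0355. Its level was 378.5 ± 34.2 TPM across Nudt7 livers and 302 ± 22.7 TPM across GFP livers (SD, n = 4 per group).

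The Cyp2d sum was 2944, 2881, 4707 and 2983 CPM in Nudt7 livers 1 to 4, against 2473, 2732, 3001 and 2392 CPM in GFP livers 1 to 4. Only Nudt7 liver 3 lay above the highest GFP liver (log2 fold change 0.35, SE 0.19, edgeR adjusted p = 0.659), and the value without it was 0.16. The Cyp2c sum was 691, 557.5, 1016 and 978 CPM in Nudt7 livers 1 to 4, against 663, 676, 625.5 and 699 CPM in GFP livers 1 to 4. Its 4 GFP livers lay close together while the Nudt7 livers fell on both sides of them (log2 fold change 0.28, SE 0.19, edgeR adjusted p = 0.696). That value was 0.17 without Nudt7 liver 3, 0.18 without Nudt7 liver 4, 0.43 without Nudt7 liver 2, and 0.12 in limma-voom with sample weights.

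The other tested sums had edgeR adjusted p values of 0.593 or more. Their log2 fold changes were -0.54 (SE 0.40) for Cyp2b, 0.16 (SE 0.18) for Cyp2e, 0.20 (SE 0.16) for Cyp2f, 0.04 (SE 0.14) for Cyp2j, -0.11 (SE 0.21) for Cyp2r, -0.23 (SE 0.38) for Cyp2s and 0.43 (SE 0.19) for Cyp2u. Without single livers the Cyp2b sum ran from -0.84 (without Nudt7 liver 3) to -0.24 (without GFP liver 4). The sum over all 48 genes had a log2 fold change of 0.23 (SE 0.17, edgeR adjusted p = 0.718), 0.12 without Nudt7 liver 3, up to 0.32 with another liver left out, and 0.08 in limma-voom with sample weights.

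**Figure D5:**
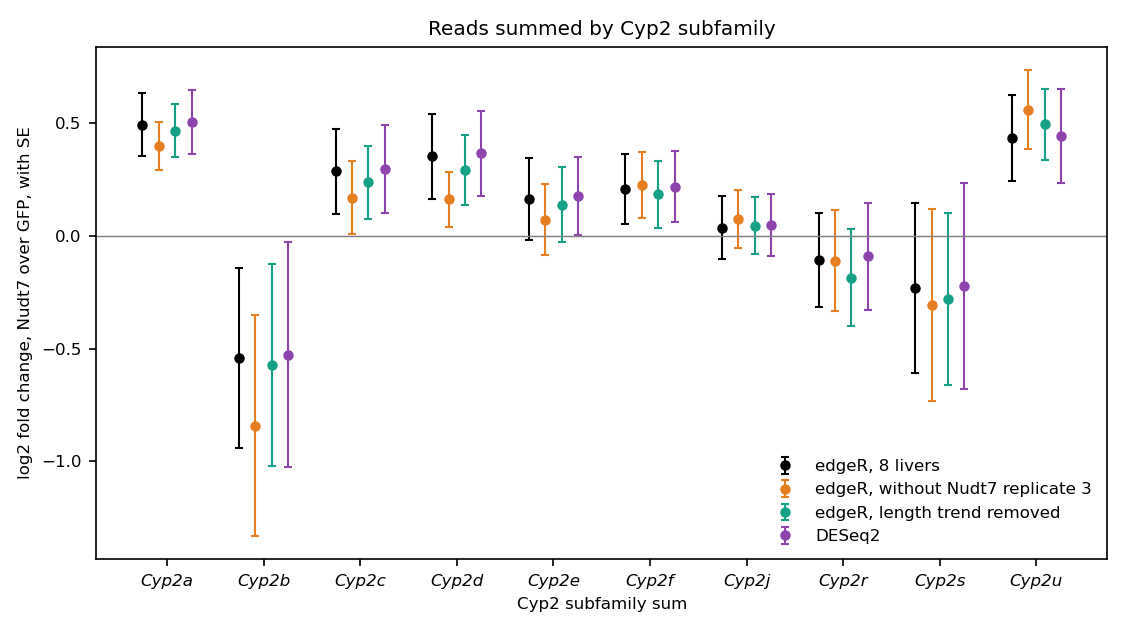
log2 fold change of reads summed by subfamily, Nudt7 over GFP, with its SE, from edgeR with all 8 livers, from edgeR without Nudt7 replicate 3, from edgeR with the length trend removed and from DESeq2. The Cyp2a sum lies between 0.40 and 0.50 in these 4 fits and the Cyp2d sum between 0.16 and 0.36.

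As a share of all liver TPM, the family took 0.876%, 0.800%, 0.911% and 1.02% in Nudt7 livers 1 to 4, against 0.8286%, 0.896%, 0.947% and 0.764% in GFP livers 1 to 4. The ranges overlapped, and the means were 0.901% ± 0.0900 across Nudt7 livers and 0.859% ± 0.0797 across GFP livers (SD, n = 4 per group). The difference of 0.0418 percentage points was within the spread of either group (two-sided exact permutation test over the 70 splits of the livers, p = 0.543, with 0.0286 the smallest p the design allows). Without Cyp2e1 the shares were 0.457% ± 0.0275 across Nudt7 livers and 0.4125% ± 0.0492 across GFP livers (exact permutation p = 0.171).

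The members also fall into groups by where and when they are made, from lists drawn up with earlier results of these data known. All 6 genes of the pericentral list (Cyp2e1, Cyp2c29, Cyp2c37, Cyp2c50, Cyp2c54 and Cyp2a5) were positive in log2 fold change, their median being 0.47. In edgeR, 3 of them were higher at an unadjusted p under 0.05 (4.25% of all genes). Without Nudt7 liver 3, Cyp2c29 was at -0.009 and Cyp2e1 at 0.07, and 2 genes of the list were higher at that threshold (4.3% of all genes). Cyp2c37, Cyp2c50 and Cyp2c54 share words, so they are not separate observations. The summed level of the list overlapped, at 5382 to 8502 CPM in Nudt7 livers and 5703 to 6347 CPM in GFP livers. Pericentral markers outside the family summed to 1833 to 2019 CPM in Nudt7 livers, against 1485 to 1725 CPM in GFP livers. Of these markers, 7 of 8 had positive fold changes, and only Oat did not overlap between the groups in CPM (2.74% of all genes were higher without overlap). Oat also had the widest gap in means, with 829.5 CPM across Nudt7 livers and 612.4 CPM across GFP livers. Periportal markers outside the family summed to 5428 to 6892 CPM in Nudt7 livers, against 7070 to 8280 CPM in GFP livers. Of these markers, 2 of 7 were positive, and each overlapped between the groups on its own. The widest gap in means was that of Pck1, with 2353 CPM across Nudt7 livers and 3503 CPM across GFP livers. In edgeR none of these markers passed the adjusted threshold, whereas DESeq2 called the pericentral marker Oat higher (log2 fold change 0.44 with an adjusted p of 0.386 in edgeR, and 0.45 with 0.0446 in DESeq2, which called 0.636% of all genes higher). Their part in the values of the pericentral members was not tested. The 6 genes of the female-biased list (Cyp2a4, Cyp2b9, Cyp2b13, Cyp2c40, Cyp2c69 and Cyp2g1) summed to 4.33 to 13.5 CPM in Nudt7 livers and 2.45 to 8.22 CPM in GFP livers, far below the 1397 to 2878 CPM in Nudt7 livers and 1221 to 1658 CPM in GFP livers of the male-biased genes Cyp2d9 and Cyp2u1 together. The list of genes that respond to CAR (Cyp2b10, Cyp2c29, Cyp2c37, Cyp2c50 and Cyp2c55) summed to 344 to 668 CPM in Nudt7 livers and 367 to 486 CPM in GFP livers, and 3 of its 4 tested genes were positive.

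The tissue label was checked with marker genes. Summed hepatocyte markers stood at 67330 to 92580 CPM in Nudt7 livers and 78640 to 98100 CPM in GFP livers. Kupffer cell markers summed to 78.3 to 191 CPM in Nudt7 livers, against 87.7 to 149 CPM in GFP livers, and stellate cell markers to 198 to 228 CPM in Nudt7 livers, against 194 to 229 CPM in GFP livers. Endothelial markers summed to 266 to 287 CPM in Nudt7 livers, against 297 to 312 CPM in GFP livers. Cholangiocyte markers summed to 31.7 to 42.5 CPM in Nudt7 livers, against 17.4 to 29.3 CPM in GFP livers. In edgeR no marker of these 5 lists passed the adjusted threshold, whereas DESeq2 called the cholangiocyte marker Spp1 higher (log2 fold change 1.13 with an adjusted p of 0.105 in edgeR, and 1.15 with 0.000877 in DESeq2, which called 0.636% of all genes higher). The endothelial and cholangiocyte sums did not overlap between the groups, and their part in the Cyp2 values was not tested. Fold changes were positive for 1 of 5 endothelial and 4 of 5 cholangiocyte markers. Taken singly, every endothelial marker overlapped in CPM, with the widest gap in means for Lyve1 (43.6 CPM across Nudt7 livers and 58.6 CPM across GFP livers). Every cholangiocyte marker but Spp1 overlapped too (2.74% of all genes were higher without overlap). Of the kidney and gut markers, Umod, Slc34a1 and Vil1 had too few reads to be tested. The gut marker Fabp2 was detected at 79.7 to 157 CPM in Nudt7 livers, against 67.6 to 98.4 CPM in GFP livers (log2 fold change 0.21, SE 0.22, edgeR adjusted p = 0.793).

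Partners of P450 enzymes were also read, in a list for electron transfer (Por, Cyb5a, Cyb5b, Cyb5r3 and Pgrmc1) and heme (Alas1, Fech, Hmox1 and Hmox2). Hmox1 and Hmox2 break heme down. The list also holds the epoxide hydrolase Ephx1, which supplies neither electrons nor heme and is among the higher genes counted here (log2 fold change 0.41). Of 10 tested genes, 0 passed the adjusted threshold in edgeR, 8 were on the positive side and the median of the list was 0.30, with 5 higher and 1 lower at an unadjusted p under 0.05 (4.25% and 4.03% of all genes). DESeq2 called 1 of them, Alas1, higher at an adjusted p of 0.05 (0.636% of all genes) and 0 lower (0.49%). Por, the oxidoreductase that feeds electrons to all of these enzymes, averaged 770 ± 161 CPM across Nudt7 livers and 1068 ± 192 CPM across GFP livers (SD, n = 4 per group; log2 fold change -0.47, SE 0.19, edgeR adjusted p = 0.528, and -0.45 without Nudt7 liver 3), with groups that did not overlap. Alas1, the rate-limiting enzyme of heme synthesis in liver, averaged 564 ± 111 CPM across Nudt7 livers and 381 ± 19.4 CPM across GFP livers. Its log2 fold change was 0.56 (SE 0.15, edgeR adjusted p = 0.276; 0.60 without Nudt7 liver 3), and its adjusted p was 0.0194 in DESeq2. Cyb5a, the cytochrome b5 that can pass on the second electron, averaged 464 ± 219 CPM across Nudt7 livers and 292.5 ± 27.7 CPM across GFP livers (log2 fold change 0.66, SE 0.25, edgeR adjusted p = 0.518). Nudt7 liver 3 had 792 CPM of it, against 344 to 371 CPM in the other 3 Nudt7 livers, and the log2 fold change without that liver was 0.29.

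Of 16 transcription factors and receptors that act on Cyp2 genes, 0 passed the adjusted threshold in edgeR, 6 were on the positive side and the median of the list was -0.06, with 1 higher and 2 lower at an unadjusted p under 0.05 (4.25% and 4.03% of all genes). Nr1i3, which encodes CAR, averaged 359 ± 53.6 CPM across Nudt7 livers and 338 ± 43.5 CPM across GFP livers (log2 fold change 0.09, SE 0.15, edgeR adjusted p = 0.876). Nr1i2, which encodes the pregnane X receptor, averaged 68.7 ± 11.0 CPM across Nudt7 livers and 70.9 ± 3.50 CPM across GFP livers (log2 fold change -0.05, SE 0.13, edgeR adjusted p = 0.936). Hnf4a, a regulator of most hepatocyte P450 genes, averaged 667 ± 46.5 CPM across Nudt7 livers and 901 ± 125 CPM across GFP livers, with no overlap (log2 fold change -0.43, SE 0.14, edgeR adjusted p = 0.422). Cux2, a repressor that is higher in female mouse liver, averaged 4.61 ± 1.14 CPM across Nudt7 livers and 8.31 ± 1.39 CPM across GFP livers, with no overlap in CPM and some in TPM (log2 fold change -0.85, SE 0.21, edgeR adjusted p = 0.205, and 0.0238 in DESeq2).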

How the data were processed

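Liver RNA from 4 Nudt7 and 4 GFP mice was sequenced. Per the labels' protocols, libraries were made from 500 ng of Trizol-extracted RNA by a KAPA kit for stranded mRNA, amplified over 9 PCR cycles. The tools named in the submitters' processing notes are FastQC, Salmon and DESeq2, with build GRCm38. The Salmon version is not given in the sources used here, and the same holds for its index. Salmon, as the authors ran it, gave each transcript an estimated count of reads (not normalized), deposited per the file headers as NumReads. The deposited files also hold the authors' TPM, scaled by Salmon for length and library, and an EffectiveLength (in bases). Of 109282 transcripts, 107987 (98.8%) were named from GENCODE M21, and the others, with 0.552% to 1.06% of the reads, were not used. Gene sums of the estimated counts were rounded to whole numbers. TPM was summed and used for levels between genes.

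The main test was edgeR 4.0.16 (R 4.3.3) quasi-likelihood, robust, with TMM scaling and filterByExpr by group, on all genes (13678 tested), group as the only term, two-sided, with p-values adjusted by Benjamini-Hochberg across all of them and called at 0.05. CPM was taken on TMM-scaled libraries. The biological coefficient of variation (common estimate) was 0.196. Subfamily and family sums replaced their members in the same fit. The family's share of TPM was compared by an exact permutation test (scipy 1.17.1). The test was also run on simulated counts, drawn for each gene independently with no outlying liver and no length trend. That run does not cover a liver such as Nudt7 liver 3, and its outcome is not reported here. Depth was 11187806 to 23640734 reads, and a count of 0 allows up to 3 reads, for counting error only.

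Alternatives were DESeq2 1.42.0, limma-voom (limma 3.58.1) with and without sample weights, RLE and upper quartile scaling, no filter, effective length offsets, a length trend (loess) removed, and each liver left out. Sums over near copies, linked by at least 25% shared 31-base words, and overlap in TPM were added after seeing the data. Values in every liver are given for members with a mean of at least 10 TPM, an unadjusted p under 0.05 or the highest level of their subfamily (28 genes). Outside the family the rule takes Por, Nr1i2, Nr1i3, Nudt7 and the 4 partners or regulators with the smallest p. Members and lists were chosen with earlier results of these data known. Promoters were matched by symbol for 40 of the 48 members.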

Additional observations from a re-analysis of the deposited data

Results flagged for a closer look

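In 4 of 72 groups of 4 livers examined (24 tested members, the subfamily and family sums and the family share, in both groups), a single liver lay farther from the rest than Dixon's test allows at 95%. Chance alone does so in about 1 in 20 such groups. Cyp2d10 reached 969 CPM in Nudt7 liver 3, against 594 to 653 CPM in the other 3 Nudt7 livers. The Cyp2d sum reached 4707 CPM in the same liver, against 2881 to 2983 CPM in the other 3 Nudt7 livers. Cyp2a22 reached 1.74 CPM in GFP liver 4, against 0.926 to 1.05 CPM in the other GFP livers, which is still below its lowest Nudt7 liver. The Cyp2j sum reached 431 CPM in GFP liver 1, against 341 to 351 CPM in the other GFP livers.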

How the results depend on the processing

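No paired analysis was possible because the labels give each mouse a number of its own, none of them shared between the groups, and the replicate numbers 1 to 4 used here only name the livers in order of accession. Of the sums and the family share, 180 of 186 alternative values kept direction and side of the threshold, as did 362 of 384 for the named members. None of these passed the threshold in the main fit, so keeping its side only meant not passing in the alternative. A missing adjusted p was counted as not passing. Subfamilies with a single gene were counted both as a sum and as a member. Members called higher numbered 0 in the edgeR fit, 5 with DESeq2, 2 with limma-voom sample weights (Cyp2a22 and Cyp2c23, 0.424% of all genes), 1 with no filter (Cyp2c23, 0.0662%) and 1 with the length trend removed (Cyp2c23, 0.161%). No member was called in any fit with a liver left out. Of the 13868 to 13951 genes tested in these fits, 1 to 8 were called higher and 1 to 12 lower. Among the members, 7 to 11 then had an unadjusted p under 0.05 on the higher side (3.12% to 5.4% of all genes). On the lower side the count was 0, 1 with sample weights (Cyp2c39, 5.83% of all genes), and 0 to 2 with a liver left out (Cyp2c38 and Cyp2c39 without Nudt7 liver 4, beside 3.97% of all genes). Members without overlap numbered 7 in CPM, 3 in TPM, and 7 to 9 with a liver left out (3.47% to 4.96% of all genes). The Cyp2a sum passed the threshold with DESeq2 at 0.50 (adjusted p = 0.0355). With effective length offsets the log2 fold change reversed to 0.055 for Cyp2r1 and its sum, and to 0.73 for Cyp2s1 and its sum. With a liver left out it ran from -0.05 to 0.13 for the Cyp2j sum, -0.19 to 0.059 for Cyp2r1 (0.06 for its sum), -0.41 to 0.04 for Cyp2s1, -0.034 to 0.23 for Cyp2c29, -0.022 to 0.21 for Cyp2c67, -0.35 to 0.071 for Cyp2c68 and -0.094 to 0.12 for Cyp2j5. Cyp2c29 was at -0.013 with sample weights. The family's share of TPM differed by 0.00315 to 0.0753 percentage points with a liver left out (exact permutation p of 0.286 or more). The cause of these shifts was not tested. Copies sharing words can trade reads: the sums gave 1.24 for Cyp2a4 with Cyp2a5, 0.33 for Cyp2a12 with Cyp2a22 and 0.20 for Cyp2d10 with Cyp2d11. At 0.976 TPM or less, 12 detected members were too low to test.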
